A study of Homo sapiens with 68 samples.

Results

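The transcripts of 5 genes for proteins that recognise the 3′ splice site were examined for the peaks of 4 RNA-binding proteins: U2AF1 (ENSG00000160201), U2AF2 (ENSG00000063244), PUF60 (ENSG00000179950), SF1 (ENSG00000168066) and SF3B1 (ENSG00000115524). They were chosen by gene identifier, as every listed peak whose name carries one of the 5 Ensembl identifiers. They are 5 of the 22843 genes with a listed peak, and hold 6004 of the 15800601 peaks. The deposited lists name genes by identifier alone, and the symbols are those given with the choice of genes.

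The peak lists come from TLC-CLIP, in which proteins are fixed to RNA with ultraviolet light in intact cells, 1 protein is pulled down with an antibody, and the RNA fragments that stay with it are sequenced. All 68 libraries are from HEK293T, a human embryonic kidney cell line, in 34 groups of 2 replicates. The proteins are hnRNPA1, hnRNPc, hnRNPI (also called PTB) and RBFOX2 (pulled down with an antibody named RBM9). The question asked of these lists was which protein has peaks on each transcript, and where.

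The 3 main groups of each protein are of crosslinked cells, 50000 per library, digested with 0.005 U of RNase. In lowRNase libraries the complexes were cut from a gel (PAGE), in noPAGE libraries that step was omitted, and noPAGE_RecJ libraries omitted it too and had an added removal of adapter. Groups named mediumRNase had 0.025 U. The hnRNPc and RBFOX2 groups named 10k and 1k had 10000 cells with 0.001 U and 1000 cells with 0.0001 U. Groups of hnRNPc named 5k and 500 had 0.005 U. They carry 50000 cells in another label field, so their cell number rests on the title. Groups named noUV are without crosslinking, as their titles say, and had 50000 cells and 0.005 U, with PAGE or without it. The groups named Background are gel regions at 50 to 75, 75 to 100, 100 to 150 and 150 to 250 kDa, from 10000 cells with 0.001 U. Nothing in the labels says that replicates came from separate cultures, so tests measure the spread between libraries, which may be technical.

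Removal of an intron begins with the marking of its 3′ end. SF1 binds the branch point, U2AF2 the pyrimidine tract that follows it, and U2AF1 the AG at the end of the intron. PUF60 is a relative of U2AF2 that also binds pyrimidine-rich RNA, and SF3B1 is the largest subunit of the SF3b complex, a part of the U2 snRNP, which takes over the branch point from SF1. The 4 immunoprecipitated proteins are regulators of splicing: hnRNPc prefers uridine tracts, hnRNPI pyrimidine-rich stretches, RBFOX2 the sequence GCAUG, and hnRNPA1 is best known for silencing exons.

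The libraries of the 3 main groups listed between 157375 and 523402 peaks, with the exception of replicate 1 of hnRNPc lowRNase, which listed 3268 and was left out of the results unless stated. This left 23 libraries of the main groups, 5 of hnRNPc and 6 of each other protein. The mediumRNase libraries are described apart. RBFOX2 lists were the shorter ones, with 157375 to 260610 peaks against 450313 to 523402 for hnRNPA1, so the share of a list and the number of peaks can order proteins differently. Libraries without crosslinking listed 18690 to 299616 peaks, and the gel regions 303 to 6716. The number of sequenced reads is unknown. The share is given in PPM, peaks per 1000000 listed peaks. The read number of a peak is the last number of its name, as interpreted here, since the authors' files do not state what it counts. Unless other groups are named, libraries counted for a window are these 23.

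Differences in share between proteins were tested with limma over 11356 genes on log2(PPM + 10), each protein against the mean of the other 3, and a gene was called at an adjusted p (Benjamini-Hochberg) under 0.05 and a log2 difference of at least 1. Among all genes, 1.7% were called higher and 2.42% lower for hnRNPA1. The same shares were 3.87% and 9.8% for hnRNPc, 9.26% and 16.8% for hnRNPI, and 24.3% and 13.8% for RBFOX2. Of the 5 transcripts, U2AF1, PUF60 and SF1 were called higher for RBFOX2, U2AF1 and SF3B1 lower for hnRNPI, SF3B1 higher and PUF60 lower for hnRNPc, and U2AF2 lower for hnRNPA1. The median log2 difference of the 5 was 1.24 for RBFOX2, against 0.02 over all genes. For hnRNPI it was -0.97 against -0.17, for hnRNPA1 -0.67 against 0.07, and for hnRNPc 0.32 against -0.01. The 4 comparisons share the same libraries and are not independent.

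**Figure D1:**
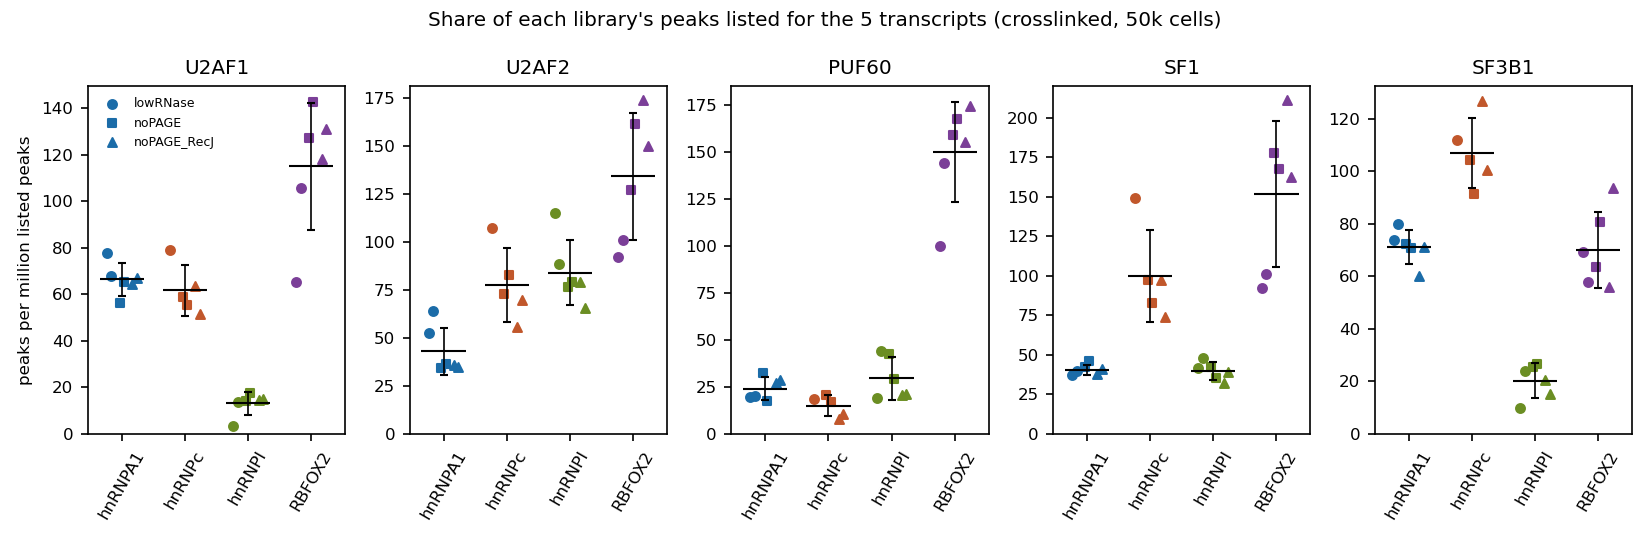
PPM, peaks per 1000000 listed peaks (y axis, linear from 0) for each transcript in the 23 crosslinked libraries of 50000 cells and 0.005 U of RNase, by protein. Each point is 1 library, its shape gives the protocol, and the line and bar are the mean and SD over the protein's libraries. On PUF60 the RBFOX2 libraries lie between 99.8 and 175 and all other libraries at 44.1 or less.

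**Figure D2:**
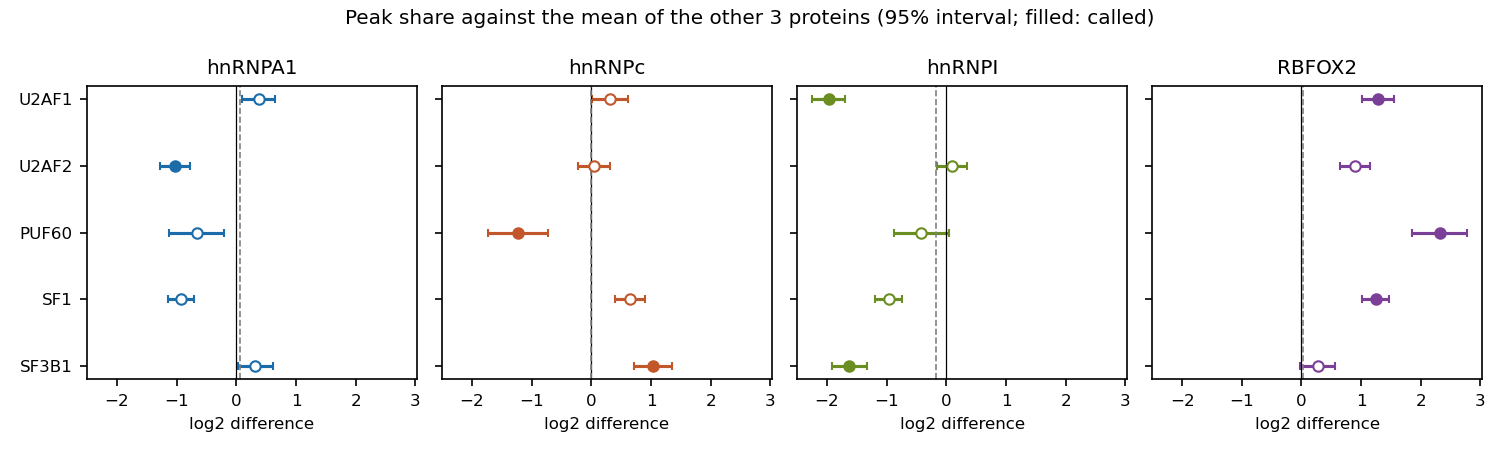
Log2 difference in peak share (x axis) of each protein against the mean of the other 3, for each transcript, with its 95% interval from limma. Filled points were called, and the dashed line is the median over all genes tested. PUF60 lies at 2.31 for RBFOX2 and U2AF1 at -1.97 for hnRNPI.

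Positions were followed in 100-nt windows of the hg19 genome. A window was taken as reproducible for a protein if at least 4 of its libraries listed a peak there, which is a higher share of the 5 hnRNPc libraries than of 6. There were 196 such windows on the 5 transcripts, and 164 of them were reproducible for 1 protein, 25 for 2, 6 for 3 and 1 for 4. A window reproducible for 1 protein could still be listed by fewer than 4 libraries of another. On PUF60, 2 of the 14 such RBFOX2 windows, and 2 of the 2 of hnRNPc, were in no main library of another protein. These counts were not made over all genes, so they say nothing particular about these 5. Distances are counted along the transcript from the 5′ end of the stretch in which peaks were listed. Exons, introns and UTRs are not assigned, because an annotation of the files' build was not used here, and for the same reason no peak sequence is printed.

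**Figure D3:**
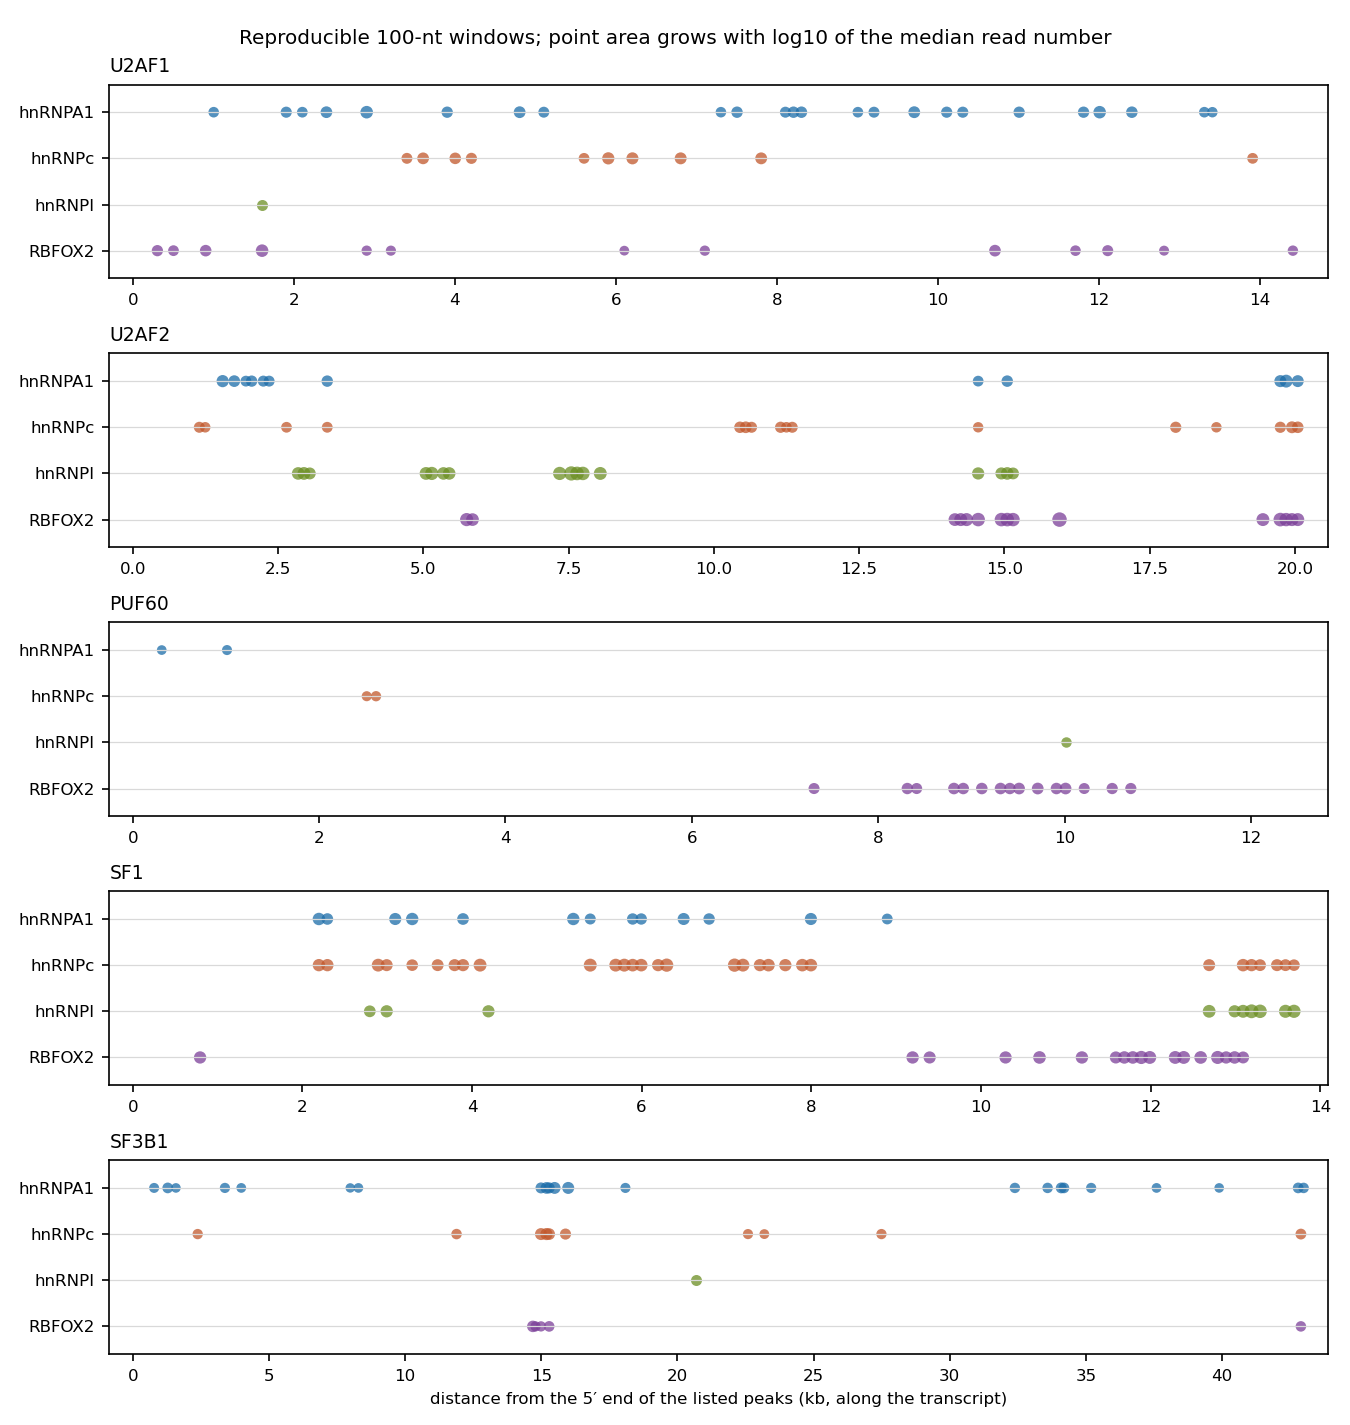
Reproducible windows of each protein (rows) along each transcript, by distance in kb (x axis) from the 5′ end of the listed peaks. Each point is 1 window and its area grows with log10 of the median read number over the protein's libraries. On SF1 the hnRNPA1 windows end before the 3′ segment, while 16 of the 18 RBFOX2 windows lie in it.

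U2AF1, the AG-binding small subunit of U2AF, had 1038 peaks in 57 libraries, between positions 44513104 and 44527657 of chromosome 21 on the minus strand. It was nearly free of hnRNPI. The 6 hnRNPI libraries listed 1 to 6 peaks, with a median of 5, while hnRNPA1 listed 28 to 40, hnRNPc 17 to 26 and RBFOX2 17 to 23. As shares, hnRNPI had 3.20 to 17.6 PPM with a median of 14.4. The hnRNPA1 median was 65.9 (56.0 to 77.6), the hnRNPc median 58.9 (51.2 to 79.1) and the RBFOX2 median 123 (65.2 to 143). No hnRNPI library overlapped the range of another protein. The log2 difference of hnRNPI was -1.97 (SE 0.14, adjusted p = 8.4e-14 by limma), and it stayed called in every alternative run. RBFOX2 was higher by 1.28 (SE 0.14, adjusted p = 3.0e-10 by limma). Of its lowRNase libraries, at 65.2 and 106, the lower lay within the ranges of hnRNPA1 and hnRNPc and the higher above them. The RBFOX2 difference was not called in 4 of 9 alternative settings (0.74 from read numbers, 0.79 with a pseudocount of 50, 0.90 under median ratio scaling and 0.96 with p below 1e-05).

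The single reproducible hnRNPI window on U2AF1, chr21:44526001-44526100, was also an RBFOX2 window. All 6 hnRNPI libraries listed it, with 18 to 35 reads, and all 6 RBFOX2 libraries, with 71 to 158. No hnRNPA1, hnRNPc or noUV library listed a peak there, while both RBFOX2 libraries of 10000 cells (120 and 122 reads) and of 1000 cells (23 in each) did. The 24 hnRNPA1 windows spread over the whole transcript, with 7, 8 and 9 in its 5′, middle and 3′ segments of equal length. The strongest of them, chr21:44524701-44524800, held 71 to 134 reads in the 6 hnRNPA1 libraries, and 4 of the 4 hnRNPA1 libraries without crosslinking listed it too. This window was also reproducible for RBFOX2, with 11 to 20 reads in 4 of 6 libraries. A window at chr21:44519401-44519500 was listed by 6 of 6 hnRNPA1 libraries, with 20 to 64 reads, and by none of the other proteins and no library without crosslinking. The 10 hnRNPc windows shared no position with the reproducible windows of another protein. The hnRNPc windows with most libraries and reads were chr21:44521401-44521500, with 37 to 90 reads, and chr21:44519801-44519900, with 29 to 84. The first was also listed by 3 of 6 hnRNPA1 libraries and by all 4 hnRNPc libraries without crosslinking, with 53 and 36 reads with PAGE and 28 and 14 without it. The second was listed by 1 hnRNPA1 library and by none without crosslinking.

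U2AF2, the pyrimidine-tract subunit of U2AF, had 1448 peaks in 60 libraries, between 56165903 and 56186058 on the plus strand of chromosome 19. It was the transcript with windows of all 4 proteins in near equal number, 12 of hnRNPA1, 16 of hnRNPc, 16 of hnRNPI and 15 of RBFOX2. By share, hnRNPA1 was lowest, with a median of 35.9 PPM (34.0 to 63.8). The hnRNPc median was 72.5 (55.4 to 107), the hnRNPI median 78.9 (65.7 to 115) and the RBFOX2 median 138 (92.1 to 174). The hnRNPA1 range overlapped that of hnRNPc and stayed below those of hnRNPI and RBFOX2. The mediumRNase libraries of hnRNPA1, at 84.8 and 83.1 PPM, lay above its main range and within that of hnRNPI. The log2 difference of hnRNPA1 was -1.03 (SE 0.12, adjusted p = 1.2e-07 by limma), and it lost its call when neighbouring peaks were joined (-0.76), under median ratio scaling (-0.85), with a pseudocount of 50 (-0.67), and without replicate 1 of hnRNPA1 lowRNase (-0.99). RBFOX2 differed by 0.90 (SE 0.12, adjusted p = 7.5e-08 by limma), short of the called size, but from read numbers in place of peaks it was 2.46, and without hnRNPc lowRNase replicate 2 it was 1.27, both called. For hnRNPc and hnRNPI the differences were 0.04 (95% interval -0.23 to 0.32) and 0.09 (-0.16 to 0.34), and from read numbers that of hnRNPc was -1.10 and called.

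The strongest peaks of the 5 transcripts lay on U2AF2. At chr19:56181801-56181900 the 6 RBFOX2 libraries held 711 to 2465 reads, with a median of 783. The lowRNase libraries, with 2465 and 2050 reads, stood above the 711 to 802 of the others. The window was seen in 2 of 6 hnRNPI libraries, with 63 and 50 reads, and in no main library of hnRNPA1 or hnRNPc. It was also listed in 11 of the 16 libraries without crosslinking, where the 4 RBFOX2 libraries held 388 to 599 reads and the hnRNPI and hnRNPc libraries 10 to 109. A peak was thus listed there with and without crosslinking. Read numbers are unscaled between libraries.

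At chr19:56173401-56173500 hnRNPI held 437 to 681 reads in its 6 libraries, with a median of 600, and 1 of 6 RBFOX2 libraries listed a peak. Without crosslinking, hnRNPI had 67 and 134 reads there with PAGE omitted and 6 in 1 library with PAGE. Other antibodies listed it without crosslinking too, both with PAGE: hnRNPc with 37 reads in replicate 1, and RBFOX2 with 12 and 7. A second hnRNPI window at chr19:56173601-56173700 held 227 to 368 reads. A window at chr19:56180201-56180300 was listed by all 6 RBFOX2 libraries, with 133 to 330 reads, and by no library of another protein or without crosslinking. The windows near the 3′ end were shared: chr19:56185901-56186000 was listed by 5 of 5 hnRNPc, 5 of 6 RBFOX2, 4 of 6 hnRNPA1 and 2 of 6 hnRNPI libraries, and by 12 of 16 libraries without crosslinking.

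PUF60, the U2AF2 relative, had 543 peaks in 58 libraries, between 144898591 and 144911162 on the minus strand of chromosome 8. RBFOX2 libraries listed 25 to 30 peaks, against 9 to 16 for hnRNPA1, 6 to 15 for hnRNPI and 3 to 9 for hnRNPc, so here RBFOX2 was highest by number as well as by share. The RBFOX2 median was 157 PPM (99.8 to 175). The medians of hnRNPA1, hnRNPI and hnRNPc were 23.3 (17.2 to 32.0), 25.1 (19.2 to 44.1) and 16.9 (7.91 to 20.4), and these 3 ranges overlapped each other. RBFOX2 was higher by 2.31 on the log2 scale (SE 0.23, adjusted p = 5.2e-11 by limma), and over the alternatives by 1.45 to 3.67. The value for hnRNPc was -1.23 (SE 0.25, adjusted p = 0.00018 by limma), which was called in every alternative but a pseudocount of 50.

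Of the 15 RBFOX2 windows on PUF60, 13 lay in the 3′ segment and none in the 5′ segment. Those with most libraries and reads were chr8:144902301-144902400, with 30 to 134 reads, and chr8:144902201-144902300, with 31 to 89. The first was also listed by 2 of 6 hnRNPA1 libraries and 1 of 6 hnRNPI libraries. The other proteins had 5 windows between them, with medians of 9.5 to 17 reads, the 2 of hnRNPA1 and the 2 of hnRNPc in the 5′ segment. The single hnRNPI window, chr8:144901101-144901200, with 12 to 22 reads in 5 of 6 libraries, was an RBFOX2 window too.

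SF1, the branch point binding protein, had 1512 peaks in 62 libraries, between 64532139 and 64545945 on the minus strand of chromosome 11. RBFOX2 and hnRNPc had the higher shares. The RBFOX2 median was 165 PPM (92.1 to 211) and the hnRNPc median 97.4 (73.8 to 149), and these ranges overlapped. The medians of hnRNPA1 and hnRNPI were 40.2 (36.9 to 45.9) and 40.2 (32.1 to 47.5), below every library of the other pair. By number of peaks hnRNPc was ahead, with 32 to 43 against 21 to 34 for RBFOX2. The log2 difference of RBFOX2 was 1.24 (SE 0.11, adjusted p = 5.8e-12 by limma), and it was not called under median ratio scaling (0.84), with a pseudocount of 50 (0.87) or from read numbers (0.88). Those of hnRNPc (0.65), hnRNPA1 (-0.93) and hnRNPI (-0.97) were under the called size, with adjusted p of 6.3e-05, 1.4e-07 and 4.6e-09 by limma. The hnRNPc value was 1.05 with p below 1e-05 and 1.08 from read numbers, both called, and 0.34 without hnRNPc lowRNase replicate 2. The hnRNPA1 value was called in 3 of 9 alternative settings, at -1.04 to -1.31. The hnRNPI value was called in 3 of 9, at -1.08 to -1.34, and in 3 of 23 fits that left out 1 library, the farthest from 0 at -1.06.

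Along SF1, the hnRNPA1 and RBFOX2 windows lay apart. Those of hnRNPc fell in each segment, but none lay between the windows at 7.995 and 12.69 kb from the 5′ end. hnRNPA1 had 13 windows, 5 in the 5′ segment, 8 in the middle and none in the 3′ segment. hnRNPc had 30, with 9 in the 5′ segment, 14 in the middle and 7 in the 3′ segment, and shared 8 with hnRNPA1. RBFOX2 had 18, of which 16 were in the 3′ segment, and shared none with hnRNPA1 and 1 with hnRNPc. hnRNPI had 10, of which 7 were in the 3′ segment, and 7 of its 10 were hnRNPc windows. In the middle, chr11:64538801-64538900 held 79 to 245 hnRNPc reads in 5 of 5 libraries, with none listed by the other proteins. Further on, chr11:64534001-64534100 held 155 to 429 RBFOX2 reads, with no library of another protein. Beyond it, chr11:64532701-64532800 held 126 to 425 hnRNPI reads in 6 of 6 libraries and was listed by 4 of 5 hnRNPc libraries. Without crosslinking, the same protein's libraries listed the first of these in 3 of 4, the second in 3 of 4 and the last in 2 of 4. Of the 18 RBFOX2 windows, 15 were listed by at least 1 RBFOX2 library without crosslinking. Some were also listed there by the other antibodies. The RBFOX2 window chr11:64536501-64536600 was listed by 15 of 16 libraries without crosslinking, 4 of them of hnRNPc, but by 0 of 5 main hnRNPc libraries. In contrast, chr11:64534101-64534200 was listed by 0 of 16.

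SF3B1, the U2 snRNP subunit, had 1463 peaks in 58 libraries, between 198256728 and 198299737 on the minus strand of chromosome 2, the longest stretch at 43.0 kb. hnRNPc had the highest share, with a median of 104 PPM (91.1 to 127). The hnRNPA1 median was 71.5 (60.0 to 79.7), the RBFOX2 median 66.3 (55.9 to 93.6) and the hnRNPI median 22.1 (9.59 to 26.3). The hnRNPI range lay below all others, and that of RBFOX2 overlapped those of hnRNPA1 and hnRNPc. The log2 difference of hnRNPI was -1.63 (SE 0.14, adjusted p = 2.0e-11 by limma), and it lost its call at a pseudocount of 50. For hnRNPc it was 1.03 (SE 0.16, adjusted p = 3.4e-06 by limma), close to the called size. It was 0.65 with a pseudocount of 50, 0.64 with p below 1e-05 (adjusted p = 0.12 by limma) and 0.43 with the short lists included (adjusted p = 0.17 by limma), and was called in none of these. It also fell short in 4 of 23 fits that left out 1 library, down to 0.97: without hnRNPc lowRNase replicate 2, hnRNPI lowRNase replicate 1, hnRNPc noPAGE_RecJ replicate 1 or RBFOX2 noPAGE_RecJ replicate 1. RBFOX2 differed by 0.27 (95% interval -0.02 to 0.57).

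hnRNPA1 had 22 windows along SF3B1, with 7, 6 and 9 in the 5′, middle and 3′ segments. Windows of 3 proteins met between 14.7 and 16.0 kb from the 5′ end. The window chr2:198284701-198284800 was listed by 5 of 5 hnRNPc libraries, with 14 to 64 reads, 5 of 6 hnRNPA1 libraries and 4 of 6 RBFOX2 libraries, and by none without crosslinking. Beside it, chr2:198283701-198283800 was listed by all 6 hnRNPA1 libraries, with a median of 63.5 reads, and by no library of another protein. On its other side, chr2:198285001-198285100 was listed by all 6 RBFOX2 libraries alone, with 26 to 54 reads. The 1 hnRNPI window, chr2:198279001-198279100, held 15 to 61 reads in 6 of 6 libraries and was listed by no library of another protein or without crosslinking.

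The agreement of positions was measured in the 8 noPAGE libraries as the Jaccard index, the share of the windows listed by either library that both listed. Pairs of the same protein had a mean index of 0.691 on SF1, 0.539 on U2AF2, 0.441 on U2AF1, 0.279 on SF3B1 and 0.271 on PUF60. Pairs of different proteins had 0.118, 0.165, 0.0721, 0.0491 and 0.0813 in the same order. On PUF60 the same-protein pairs ranged from 0.143 for hnRNPA1 to 0.444 for RBFOX2, and hnRNPA1 with RBFOX2 had 0.138. By an exact one-sided test over every way to pair the 8 libraries, the pairing by protein was the closest on each of the 5 transcripts (p = 0.00952, the smallest possible, adjusted p = 0.00971). The test was called, at an adjusted p under 0.05, for 99.8% of the 5559 genes that could be tested, so it says nothing particular about these 5. The closest pair of different proteins on SF1 was hnRNPc with hnRNPI (0.240) and on U2AF2 hnRNPA1 with RBFOX2 (0.233). On SF3B1 no window was shared by an hnRNPI and an RBFOX2 library (0).

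Omission of crosslinking was compared in noPAGE libraries, averaged over the 4 proteins. Among all genes 7.52% were called higher and 17.1% lower without crosslinking, and of the 5 transcripts SF1 was called higher. The SF1 libraries of hnRNPI held 42.4 and 35.1 PPM with crosslinking and 476 and 355 without it, from 15 and 12 peaks against 21 and 28 in the shorter lists. Those of RBFOX2 went from 178 and 167 to 322 and 294, of hnRNPc from 97.4 and 82.7 to 149 and 144, and of hnRNPA1 from 42.0 and 45.9 to 99.7 and 61.1. In each protein both libraries without crosslinking lay above both with it. The mean log2 difference was 1.32 (SE 0.12, adjusted p = 1.6e-11 by limma), but 0.85 under median ratio scaling and 0.59 from read numbers, neither of them called.

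The values of U2AF2, SF3B1 and U2AF1 were 0.99, 0.85 and 0.64, with adjusted p of 5.1e-08, 1.2e-05 and 0.00024 by limma, all under the called size. U2AF2 lay just under it, and was called in 3 of 9 alternative settings, at 1.01 to 1.24, and in 7 of 16 fits that left out 1 library, at up to 1.13. PUF60 differed by 0.19 (95% interval -0.29 to 0.68). Its RBFOX2 share did not fall: noPAGE libraries held 159 and 167 PPM with crosslinking and 208 and 212 without it. These came from 25 and 27 peaks against 11 and 13, and the effect in RBFOX2 alone was not called. With PAGE, the RBFOX2 libraries without crosslinking held 199 and 218 PPM. Libraries of the other antibodies without crosslinking held at most 83.1 PPM on PUF60. The median of the 5 was 0.85 against -0.18 over all genes. List length moved with this comparison: the noPAGE libraries of hnRNPI listed 353415 and 341973 peaks with crosslinking and 44086 and 78945 without it. The part of list length in these shares was not tested. The libraries without crosslinking also have accessions apart from the 50k libraries, and a preparation batch cannot be told apart from crosslinking. The effect was not the same in each protein: SF1, U2AF1 and U2AF2 were called higher in hnRNPI than in the mean of the others, as 16.4% of all genes were, and SF3B1 lower in hnRNPc, as 3.47% were.

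**Figure D4:**
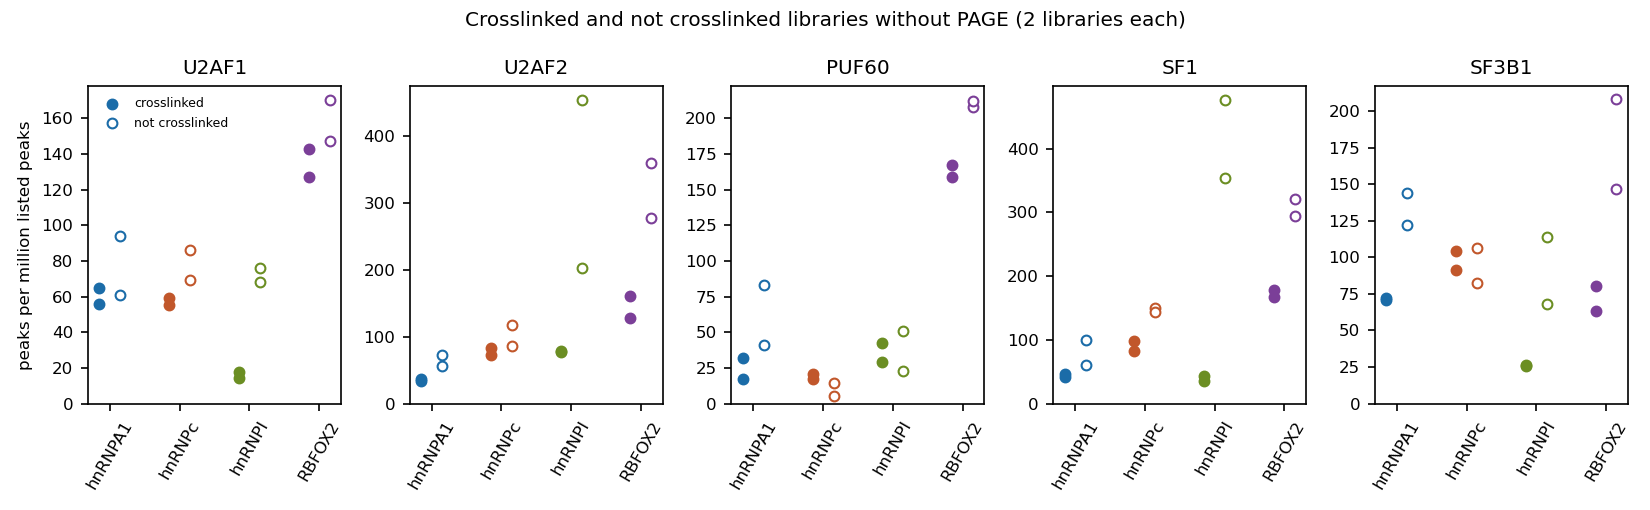
PPM, peaks per 1000000 listed peaks (y axis, linear from 0) for each transcript in noPAGE libraries with crosslinking (filled) and without (open), by protein. Each point is 1 library, with 2 per group. On SF1 the hnRNPI libraries stand at 42.4 and 35.1 with crosslinking and at 476 and 355 without it.

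By position, each library without crosslinking held 21.2% to 47.1% of the reproducible windows of its own protein on the 5 transcripts. The windows listed by at least 1 of a protein's 4 such libraries were more. On U2AF1, U2AF2, PUF60, SF1 and SF3B1 they were 33.3%, 83.3%, 0%, 61.5% and 45.45% for hnRNPA1. In the same order they were 40%, 68.75%, 50%, 63.3% and 50% for hnRNPc, and 53.85%, 80%, 33.3%, 83.3% and 20% for RBFOX2. For hnRNPI they were 68.75% on U2AF2 and 70% on SF1, and 0 of its 1 window on each other transcript. On PUF60 the 4 RBFOX2 libraries without crosslinking listed 1 to 4 of the 15 RBFOX2 windows, and on U2AF2 6 to 10 of 15. These 4 lists held 22911 to 61242 peaks, against 157375 to 260610 in the main RBFOX2 libraries. The part of list length in this recovery was not tested.

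Omission of PAGE left the 5 transcripts uncalled, with log2 differences from -0.21 for U2AF2 to 0.20 for PUF60 and adjusted p of 0.76 or more by limma. Over all genes 0.0528% were called higher and 0.00881% lower, and 1081 of the 11356 had an unadjusted p under 0.05, none of the 5 among them. The 95% intervals of the 5 reached from -0.48 to 0.71. Between proteins, the effect on SF1 was called higher in RBFOX2 than in the mean of the others, as it was for 0.845% of all genes.

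Fewer cells and more RNase were described without a test. The 68 reproducible hnRNPc windows were recovered at 88.2% and 83.8% in the 2 libraries titled 5k_noPAGE, 75% and 57.4% in those titled 500_noPAGE, 54.4% and 55.9% from 10000 cells and 47.1% and 55.9% from 1000 cells. RNase amount differed along with cell number in the last 2 groups. Their titles also lack noPAGE, unlike those of the 5k and 500 groups and of most libraries that defined the windows. Cell number, RNase amount, protocol and any preparation batch cannot be told apart in them. The 66 RBFOX2 windows were recovered at 36.4% and 47.0% from 10000 cells and 37.9% and 36.4% from 1000 cells, with the same differences in RNase and title. The U2AF2 window chr19:56181801-56181900 was among those kept, with 1340 and 1520 reads from 10000 cells and 305 and 522 from 1000. On SF1, hnRNPc listed 31 and 38 peaks from 1000 cells, near the 32 to 43 of its main libraries. With 0.025 U of RNase, 61.6% and 69.9% of the 73 hnRNPA1 windows and 66.2% and 75% of the hnRNPc windows were listed.

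The other gel regions held almost nothing of these transcripts. In 8 libraries there was 1 SF1 peak at 75 to 100 kDa in replicate 1, 1 SF1 peak at 50 to 75 kDa in replicate 2, and 2 SF3B1 peaks at 75 to 100 kDa in replicate 2. None fell in a reproducible hnRNPc window, and their lists were short throughout.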

How the data were processed

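One list of peaks per library was analysed. Per the submitters' processing notes, the tools were bcl2fastq, STAR 2.7.3a and UMI-tools 1.0.1, with the hg19 build. The peak caller's settings and the annotation are not stated in the labels, headers or notes. The lists hold positions, a gene identifier, a read number as interpreted here, and the deposited p-value of each peak, at most 0.0072 on these transcripts. Replicates shared at most 0.932% of identical peaks, so none was a copy. Peaks per gene were divided by the list's total and multiplied by 1000000 (PPM). Genes with a mean of at least 10 PPM in the 59 libraries of at least 10000 peaks were tested on log2(value + 10) with limma 3.58.1 in R 4.3.3, with groups as the model. The hnRNPc lowRNase group entered with 1 library. A peak was placed by the centre of its inner interval. The pairing test needed 5 windows per library. In simulated data for the RBFOX2 comparison over 11331 genes, 98 of 100 changes of 4-fold and 15 of 99 of 2-fold were called, with 1 false call.

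The 5 genes, tests and rules were chosen with earlier results of these data known. The rule for naming windows took, per gene and protein, the 2 in most main libraries (ties by read-number percentile). Per gene it also took the one with the largest difference in library share. Windows named beyond these were chosen after their values were seen. Not every window the rule took is named above, and those given next are only some of the rest. Both of hnRNPA1 on SF1, chr11:64542601-64542700 and chr11:64543701-64543800, were left out, and each was also listed by 5 of 5 hnRNPc libraries. Also left out was chr19:56185701-56185800, listed by 6 of 6 RBFOX2, 6 of 6 hnRNPA1 and 14 of 16 noUV libraries. Another was chr21:44526701-44526800, listed by 6 of 6 RBFOX2 libraries and no other main library. On U2AF2, chr19:56167401-56167500 was left out too, listed by 6 of 6 hnRNPA1 libraries, with 33 to 96 reads, and by 1 of 6 RBFOX2 libraries. A wider list of spliceosome genes was not analysed here, since the files give identifiers only and the gene table pairs none with a symbol. Alternatives were a pseudocount of 1 or 50, no filter on low genes, peaks with p below 1e-05, peaks joined at under 30 nt, summed reads, median ratio scaling, a replicate block, short lists included, and each library left out. For positions they were windows of 50 or 200 nt, other protocols, another index and a minimum of 10 windows.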

Additional observations from a re-analysis of the deposited data

Results flagged for a closer look

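The effect of omitting crosslinking differed between proteins on 4 transcripts, by an interaction contrast in limma. On SF1 the log2 effect in hnRNPI exceeded the mean of the other 3 proteins by 2.40 (adjusted p = 8.6e-09 by limma). The same contrast gave 1.37 for U2AF1 (adjusted p = 0.00085 by limma) and 1.13 for U2AF2 (adjusted p = 0.0021 by limma). Among all genes 16.4% were called higher in that contrast. The SF1 call held in all 9 alternative settings, while those of U2AF1 and U2AF2 were lost or reversed in 4 of 9 each. Leaving out 1 library moved the U2AF2 value between 0.57 and 1.69, and without noUV_noPAGE_hnRNPI replicate 1 it was 0.57 and not called (adjusted p = 0.12 by limma). U2AF1 in hnRNPI rested on 5 and 6 peaks with crosslinking and 3 and 6 without it, and noUV_hnRNPI libraries with PAGE listed none. On SF3B1 the effect in hnRNPc was below the mean of the others by -1.20 on the log2 scale (adjusted p = 0.017 by limma), with 3.47% of all genes called lower. There hnRNPc held 104 and 91.1 PPM with crosslinking and 106 and 82.6 without it. This call was lost in 5 of 9 alternative settings and in 3 of 16 fits without 1 library.

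The effect of omitting PAGE on SF1 in RBFOX2 exceeded the mean of the others by 1.00 (adjusted p = 0.038 by limma), with 0.845% of all genes called higher. RBFOX2 held 92.1 and 101 PPM with PAGE and 178 and 167 without it, from 24 and 21 against 28 and 27 peaks. This call was lost in 5 of 9 alternative settings and in 10 of 15 fits that left out 1 library.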

How the results depend on the processing

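Leaving out 1 library at a time moved the number of the 5 transcripts called between 0 and 1 for hnRNPA1, 1 and 2 for hnRNPc, 2 and 3 for hnRNPI, 3 and 4 for RBFOX2 and 1 and 2 for crosslinking, and left 0 for PAGE and 5 for the pairing test. The numbers in the main setting were 1, 2, 2, 3, 1, 0 and 5. For hnRNPA1 it became 2 with a pseudocount of 1 or with short lists included, 0 with a pseudocount of 50, joined peaks or median ratio scaling, and 3 from read numbers. For hnRNPc it became 0 with a pseudocount of 50, 4 from read numbers and 1 with short lists. For hnRNPI it became 1 with a pseudocount of 50 and 4 with p below 1e-05, where PUF60 (-1.42) and SF1 (-1.34) were gained. For RBFOX2 it became 1 with a pseudocount of 50 or median ratio scaling. For crosslinking it became 2 with a pseudocount of 1, p below 1e-05 or joined peaks, where U2AF2 was gained, and 0 from read numbers or median ratio scaling. In the pairing test it became 2 with p below 1e-05 or a minimum of 10 windows, where fewer transcripts could be tested; low RNase libraries with PAGE gave no value, as 1 of their lists is short. The cause of the other changes was not tested.

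Differences that changed sign, none of them called in the main setting unless stated, were these. From read numbers, U2AF2 turned to -1.10 in hnRNPc, SF3B1 to -0.32 in RBFOX2, U2AF1 to -0.19 and PUF60 to -0.17 without crosslinking, PUF60 to -0.11 without PAGE, and the called U2AF2 contrast of hnRNPI without crosslinking to -0.35. With short lists, U2AF1 turned to -0.21 in hnRNPc, U2AF2 to -0.042 in hnRNPI and SF1 to -0.22 without PAGE. With joined peaks, U2AF2 turned to -0.29 in hnRNPI and SF1 to -0.14 without PAGE. With p below 1e-05, U2AF1 turned to -0.21 and PUF60 to -0.30 without crosslinking, and SF1 to -0.15 without PAGE. Median ratio scaling turned SF3B1 to -0.11 in RBFOX2 and PUF60 to -0.20 without crosslinking. Leaving out 1 library gave U2AF2 in hnRNPc -0.10 to 0.092, SF1 without PAGE -0.0018 to 0.26 and SF3B1 without PAGE -0.0058 to 0.19.

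Median ratio scaling moved the median over all genes from 0.07 to 0.27 in hnRNPA1, -0.17 to 0.05 in hnRNPI, 0.02 to -0.36 in RBFOX2 and -0.18 to -0.51 without crosslinking. The share of calls that were higher went from 41.2% to 76.6%, 35.5% to 51.9%, 63.9% to 38.3% and 30.5% to 5.83% in the same order. The replicate numbers did not pair libraries (median r of 0.0031 over 406 pairs of groups, 8 of them over 0.1), and with a replicate block the numbers called stayed at 1, 2, 2, 3, 1 and 0. After seeing the data, windows were recounted: the 73, 68, 29 and 66 of hnRNPA1, hnRNPc, hnRNPI and RBFOX2 became 76, 67, 35 and 70 on a grid shifted by 50 nt, 59, 59, 29 and 60 with p below 1e-05, and 32, 31, 13 and 25 if every library had to list them. Unknown depth limits every share and every absence of a peak.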
